A study of Mus musculus with 6 samples.

Results

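The genes described here act in mitotic entry, at the kinetochore and in the spindle checkpoint. They are 54 named mouse genes, the Kif family of kinesins left out, of the 27179 genes in the count table, found by matching each Entrez gene ID to its symbol. All 54 passed the filter on low counts, which left 12916 genes for testing, and the lowest count of any of them in any library was 205. The RNA came from A/E9a;NRASG12D leukemia cells of C57BL/6 mice, an acute myeloid leukemia model named for a short RUNX1-RUNX1T1 fusion and an activated NRAS. Both groups carried this leukemia, and the labels set them apart by treatment: 3 days of panobinostat, an inhibitor of histone deacetylases, or 3 days of vehicle, with 3 libraries each. Cells positive for GFP that excluded the dead-cell dye propidium iodide were sorted from the spleen. The labels list the leukemia under cell line, and the sources used here do not give the dose, the animals' age or sex, or whether each library is a separate mouse. The p-values therefore reflect spread among libraries, which could be technical.

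A cell enters mitosis when cyclin A and cyclin B switch on the kinase CDK1, helped by CDC25 phosphatases and opposed by WEE1. Each chromosome then binds spindle microtubules through its kinetochore, a set of protein layers built on nucleosomes that hold the histone variant CENP-A. Kinetochores without microtubules feed the spindle checkpoint, which holds back CDC20 and the anaphase-promoting complex (APC/C) until all are attached; the complex then marks cyclin B and securin for destruction and the sister chromatids part. Transcripts of many of these genes peak in G2 and M phase and are low in resting cells. Their promoters are known for a CHR element (cell cycle genes homology region), bound by the MuvB core of the DREAM and B-MYB complexes, and for CCAAT boxes, bound by NF-Y.

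Promoter windows of 300 bases, from 250 before to 50 after an annotated start, were matched in RefSeq (GRCm38.p6) for 45 of the 54 genes, with 50 windows in all. Shown first are those of the 5 genes called lower with the smallest p that hold both a CHR element and a CCAAT box. They are printed because the same pair of elements recurred across the set. Capitals mark the CHR element (TTTGAA or TTCGAA) and the CCAAT box (CCAAT), each on either strand, with bases in the direction of the gene.
Aurka, chr2:172370521-172370820, minus strand: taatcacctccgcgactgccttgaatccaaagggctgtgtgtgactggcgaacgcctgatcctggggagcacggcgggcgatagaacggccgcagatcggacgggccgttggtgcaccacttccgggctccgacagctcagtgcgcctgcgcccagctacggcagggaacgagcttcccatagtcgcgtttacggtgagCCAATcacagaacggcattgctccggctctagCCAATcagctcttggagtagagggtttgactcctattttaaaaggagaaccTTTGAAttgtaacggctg
Ect2, chr3:27153829-27154128, minus strand: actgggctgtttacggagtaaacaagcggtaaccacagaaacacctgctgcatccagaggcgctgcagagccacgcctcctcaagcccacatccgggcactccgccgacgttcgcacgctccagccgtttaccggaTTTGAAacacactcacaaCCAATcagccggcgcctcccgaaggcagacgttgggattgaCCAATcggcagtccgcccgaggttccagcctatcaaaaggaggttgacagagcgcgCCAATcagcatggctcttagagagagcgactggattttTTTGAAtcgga
Cdc20, chr4:118437294-118437593, minus strand: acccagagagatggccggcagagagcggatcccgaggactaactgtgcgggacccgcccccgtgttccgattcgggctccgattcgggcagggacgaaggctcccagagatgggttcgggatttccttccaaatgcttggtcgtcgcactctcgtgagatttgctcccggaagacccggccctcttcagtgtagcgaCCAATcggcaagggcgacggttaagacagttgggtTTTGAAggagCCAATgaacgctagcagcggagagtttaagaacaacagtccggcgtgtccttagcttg
Ube2c, chr2:164769679-164769978, plus strand: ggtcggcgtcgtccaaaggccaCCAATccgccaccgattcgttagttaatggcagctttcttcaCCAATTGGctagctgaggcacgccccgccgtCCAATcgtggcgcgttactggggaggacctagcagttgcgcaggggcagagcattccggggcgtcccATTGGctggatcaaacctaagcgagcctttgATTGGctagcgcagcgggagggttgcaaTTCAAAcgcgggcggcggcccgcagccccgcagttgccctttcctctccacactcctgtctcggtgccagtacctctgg
Bub1b, chr2:118597961-118598260, plus strand: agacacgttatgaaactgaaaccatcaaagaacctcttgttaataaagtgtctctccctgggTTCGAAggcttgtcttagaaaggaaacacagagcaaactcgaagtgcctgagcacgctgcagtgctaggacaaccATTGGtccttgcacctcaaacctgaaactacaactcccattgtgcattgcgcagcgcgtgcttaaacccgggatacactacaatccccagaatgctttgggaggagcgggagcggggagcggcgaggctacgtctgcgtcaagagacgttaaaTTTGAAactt
In Cdc20 the CHR element began at position -18 from the start site, with CCAAT boxes at -53 and -8. In Ube2c it began at -29 and was read on the opposite strand, downstream of 6 CCAAT matches, of which a pair overlap because one stretch reads as CCAAT on both strands. Aurka held its CHR element after the start site of its window, at 32, and CCAAT boxes at -51 and -19. The printed windows of Aurka and Ect2 lie wholly inside the annotated genes, which on the minus strand begin at 172370886 and 27154253. Ect2 and Bub1b held 2 CHR elements each, and the upstream one in Bub1b was of the TTCGAA form.

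A CHR element was present in 35 of the 50 windows (70%), against 14.3% of the windows of all tested genes and 19.2% of all windows in the RefSeq table. A CCAAT box was present in 76%, against 38.5% and 37.4%, and at least 2 CCAAT matches in 46%, against 14.7% and 11.7%. Both elements stood together in 62% of the windows, against 6.19% and 7.52%, and 28 genes had such a window. E2F sites (TTTGGCGC, TTTCCCGC, TTTGCCGC or TTTCGCGC, either strand) were in 8%, against 4.05% and 2.26%. Genes with and without the elements had close fold changes between treatments. The 28 genes with both elements had a median log2 fold change of -0.80 with 25 called lower, and the other 17 had -0.83 with 15 called lower.

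With panobinostat, 48 of the 54 genes were called lower by edgeR's quasi-likelihood test (Benjamini-Hochberg adjusted p under 0.05 over all tested genes), 1 was called higher and 5 were not called. That is 88.9% called lower, where 9.72% of all tested genes were called lower and 11.3% higher. The fold change was negative in 52 of the 54, against 48.9% of all genes. In 51 genes every panobinostat library lay below every vehicle library, a pattern found in 22.7% of all genes. Genes called lower ranged from 1.27-fold to 2.17-fold, with a median of 1.79-fold, and their standard errors on the log2 scale ran from 0.09 to 0.20. The median log2 fold change over the 54 was -0.83, and over all tested genes it was 0.01. At least 2-fold lower and called were 9 genes (Cdc25c, Bub1, Bub1b, Ttk, Cenpi, Ska3, Cdc20, Ect2 and Anln), a mark that 1.49% of all genes reached.

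The calls changed more than the direction did when single libraries were left out. Without vehicle library 2 the number called lower was 9, and without vehicle library 4 it was also 9, while the median log2 fold changes were -0.72 and -0.83. The loss was general: in those fits the genes called lower over the whole table went from 1255 to 180 (1.37% of those tested) and to 135 (1.02%). Ccnb1, Cdk1, Aurka, Bub1b, Ska3, Cdc20, Ube2c and Ect2 were called in every one of the 10 other ways of processing the data that were run. Bub3, Spc25, Cdca3 and Smc2 missed the threshold in 5 of the 10 each. The number of genes with a negative fold change was 52 in all 10. In bulk RNA, fewer dividing cells and less of these transcripts per dividing cell cannot be told apart.

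**Figure D1:**
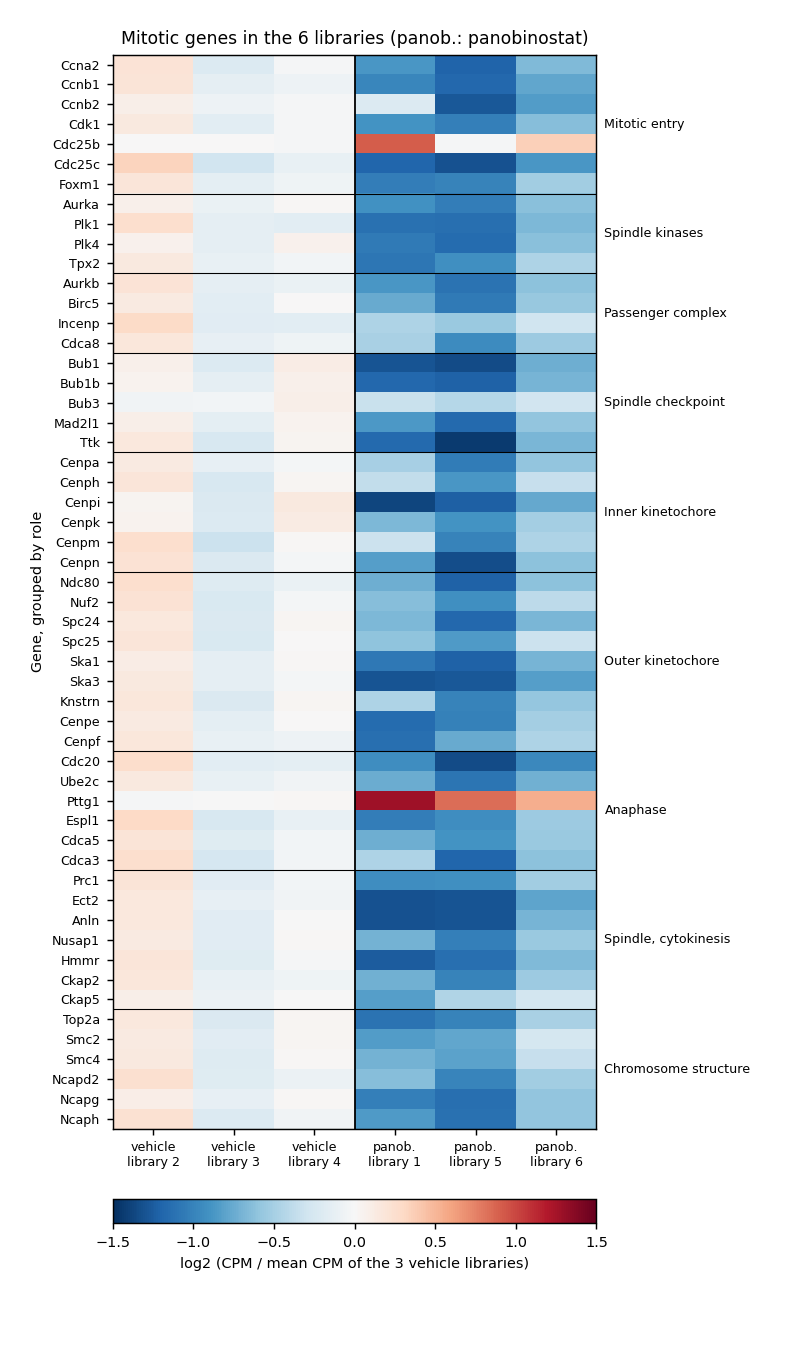
Level of each of the 54 genes (rows, grouped by role) in each library (columns), as log2 of its TMM-scaled CPM over the mean of the 3 vehicle libraries. Blue fills the panobinostat columns apart from Pttg1 and Cdc25b, and library 5 is the lowest panobinostat library in 39 genes.

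**Figure D2:**
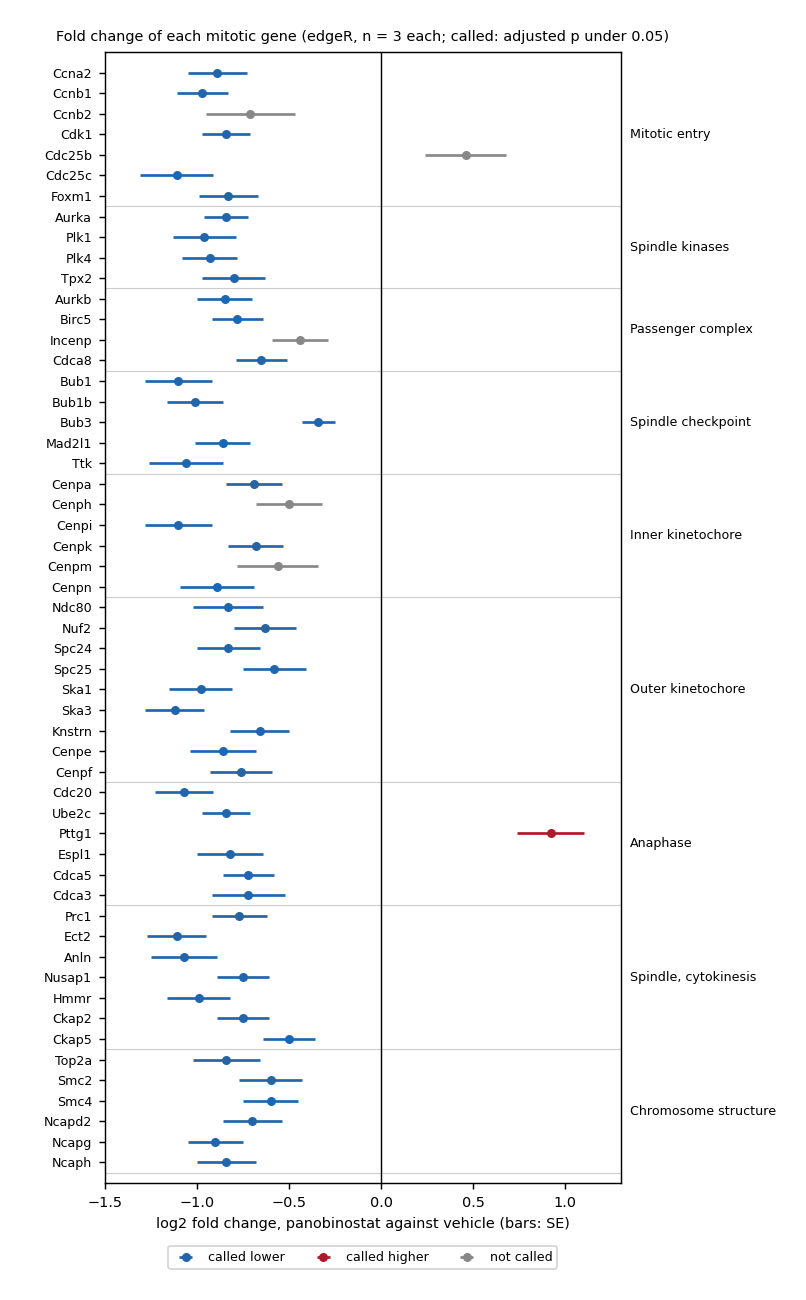
log2 fold change of each gene, panobinostat against vehicle, with its standard error (bars; edgeR, 3 libraries each); blue marks genes called lower, red called higher and grey not called. The 48 genes called lower lie between -1.12 and -0.34, and Pttg1 stands at 0.92.

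Total counts per library ran from 25794869 to 32571961. The libraries are named by the leading number of their count column: 2, 3 and 4 for vehicle, 1, 5 and 6 for panobinostat. The column names hold more digits, unexplained in the sources used here: these are identical in vehicle libraries 2 and 3, and library 1 is alone in its final digit. Levels are given in that order, as CPM, counts scaled by library size and by TMM, a correction for RNA composition. Gene positions are those of RefSeq for GRCm38.p6, the assembly behind mm10. Kit and Gata1, genes of blood progenitors and of the erythroid and megakaryocyte lines, were at 163 to 321 CPM and 246 to 441 CPM over the 6 libraries, Gata1 being called higher. The pan-leukocyte gene Ptprc was at 1.77 to 4.43 CPM and the myeloid integrin gene Itgam at 0.189 to 0.489 CPM, so these markers of mature leukocytes and myeloid cells were low or near 0. Erythroid markers moved with treatment: 5 of 6 were called higher, and their summed level ran from 4662 to 5788 CPM with vehicle and from 21739 to 49743 CPM with panobinostat. Of 5 megakaryocyte markers 3 of the 4 tested were called higher, with a summed level of 25.6 to 46.1 CPM against 151 to 271 CPM. Summed macrophage markers were at 6.99 to 12.9 and 9.59 to 41.9 CPM, with Vcam1 called higher of 8, and those of T cells at 0.411 to 0.674 and 0.565 to 0.88 CPM. Of 5 endothelial and stromal markers both tested, Pecam1 and Kdr, were called higher, with a summed level of 1.92 to 2.55 CPM against 11.3 to 20.6 CPM. Plasma cell markers summed to 4.32 to 7.21 and 10.4 to 23.8 CPM, with Prdm1 called higher, and plasmacytoid dendritic cell markers to 77.8 to 90.3 and 160.3 to 246 CPM, with Bst2 called higher. Of 5 B cell and 7 granulocyte markers 4 each were tested and none was called, and no NK cell marker passed the filter. The sums of these lists overlapped between groups. Cdh5, Siglech, Ly6g and Ncr1, 1 gene each of the endothelial, plasmacytoid dendritic cell, granulocyte and NK cell lists, were at 0 to 0.103 CPM. Some other genes of these lists were higher, among them Kdr at 0.72 to 17.8, Bst2 at 71.2 to 236 and S100a9 at 1.03 to 3.6 CPM. The part of these other transcripts in the results below was not tested.

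The 54 genes shifted together from library to library within a group as well. Relative to the vehicle mean, the median gene stood at log2 0.17 in vehicle library 2, -0.15 in library 3 and -0.01 in library 4. In panobinostat libraries 1, 5 and 6 it stood at -0.85, -1.04 and -0.58. Vehicle library 2 was the highest vehicle library for 46 genes and library 3 the lowest for 50. Library 5 was the lowest panobinostat library for 39 genes, library 1 for 14 and library 6 for 1, and library 6 was the highest of the 3 for 44. All 3 treated medians lay below all 3 vehicle medians.

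Among the genes of mitotic entry, 5 of 7 were called lower and none higher, with a median log2 fold change of -0.84. Ccnb1, which encodes cyclin B1, the activator of CDK1 (Entrez gene 268697, chromosome 13, 100778739 to 100786486), measured 193, 153 and 159.9 CPM with vehicle and 85.7, 74.6 and 97.9 CPM with panobinostat. All treated libraries lay below all vehicle libraries, and the gene was 1.96-fold lower (log2 -0.97 ± 0.14, SE, n = 3 each; edgeR adjusted p = 0.0065). Cdk1, the kinase itself (Entrez gene 12534, chromosome 10, 69335146 to 69352912), measured 132, 107 and 118 CPM with vehicle and 63.9, 58.6 and 76.6 CPM with panobinostat. It showed the same separation and was 1.79-fold lower (log2 -0.84 ± 0.13, SE, n = 3 each; edgeR adjusted p = 0.0083). The other genes called lower were Cdc25c, a phosphatase that activates CDK1 (log2 -1.11, edgeR adjusted p = 0.013), Ccna2, cyclin A2 (log2 -0.89, edgeR adjusted p = 0.013), and Foxm1, a transcription factor of G2 and M phase genes (log2 -0.83, edgeR adjusted p = 0.015). Of the exonic bases of Ccna2, 10.4% are shared with Exosc9 on the other strand.

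The remaining genes of entry were each close relatives of one that fell. Ccnb2, cyclin B2, measured 139, 124 and 129 CPM with vehicle and 113, 54.2 and 73 CPM with panobinostat. Its groups did not overlap, but library 1 stood near the vehicle level and the gene was not called (log2 -0.71, edgeR adjusted p = 0.076); without panobinostat library 1 it was called, at a log2 fold change of -1.04. Cdc25b, a phosphatase that starts CDK1 activation (Entrez gene 12531, chromosome 2, 131186436 to 131198511), measured 675, 678 and 665 CPM with vehicle and 1262, 665 and 859 CPM with panobinostat. Its vehicle libraries lay close together, while library 1 was far above them and library 6 above them. Library 5 was level with the lowest of them, vehicle library 4, and the gene was not called (log2 0.46, edgeR adjusted p = 0.16). The ratio between relatives differed by library. Ccnb2 over Ccnb1 was 0.723 to 0.811 in the vehicle libraries, 0.726 and 0.746 in panobinostat libraries 5 and 6, and 1.32 in library 1. Cdc25b over Cdc25c was 25 to 38.7 with vehicle and 73.2 to 134 with panobinostat. These pairs were chosen after their values were seen and carry no test.

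All 4 genes of spindle assembly kinases and their activator were called lower, with a median log2 fold change of -0.89. Aurka, Aurora A, which acts at the spindle poles (Entrez gene 20878, chromosome 2, 172356190 to 172370886), measured 83.7, 74.4 and 80.1 CPM with vehicle and 42.3, 38.8 and 51.6 CPM with panobinostat. Its treated libraries lay far below its closely grouped vehicle libraries, and it was 1.79-fold lower (log2 -0.84 ± 0.12, SE, n = 3 each; edgeR adjusted p = 0.0073). Plk4, the kinase that starts centriole duplication, measured 88.4, 77 and 88.5 CPM with vehicle and 40.5, 37.9 and 54.7 CPM with panobinostat. Library 6 was its highest treated library and still below every vehicle library, and the gene was 1.91-fold lower (log2 -0.93 ± 0.15, SE, n = 3 each; edgeR adjusted p = 0.0098). Tpx2, which activates Aurora A on microtubules, measured 265, 221 and 232 CPM with vehicle and 113, 127 and 173 CPM with panobinostat. It differed least of the 4, without overlap, and was 1.74-fold lower (log2 -0.80 ± 0.17, SE, n = 3 each; edgeR adjusted p = 0.019). Plk1, Polo-like kinase 1, which acts from mitotic entry to cytokinesis, was 1.94-fold lower (log2 -0.96 ± 0.17, SE, n = 3 each; edgeR adjusted p = 0.012).

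In the chromosomal passenger complex, which corrects faulty microtubule attachments, 3 of 4 genes were called lower. Aurkb, its Aurora B kinase (Entrez gene 20877, chromosome 11, 69045624 to 69051664), measured 108, 85.3 and 87.7 CPM with vehicle and 51, 43.5 and 61.2 CPM with panobinostat. The groups did not overlap, and it was 1.81-fold lower (log2 -0.85 ± 0.15, SE, n = 3 each; edgeR adjusted p = 0.012). Birc5, survivin, which targets the complex to centromeres, measured 116, 94.9 and 106 CPM with vehicle and 62.7, 50.6 and 71.2 CPM with panobinostat. Its treated libraries lay below its vehicle libraries. It was 1.72-fold lower (log2 -0.78 ± 0.14, SE, n = 3 each; edgeR adjusted p = 0.013), and Cdca8, borealin, was 1.56-fold lower (log2 -0.65 ± 0.14, SE, n = 3 each; edgeR adjusted p = 0.023). Incenp, the scaffold that binds the kinase, measured 272, 199 and 200.2 CPM with vehicle and 162, 152 and 182 CPM with panobinostat. Its treated libraries lay below the vehicle libraries, and vehicle library 2 stood well above the other vehicle libraries. The gene was not called (log2 -0.44, edgeR adjusted p = 0.073), and without vehicle library 2 its log2 fold change was -0.27 (edgeR adjusted p = 0.17).

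All 5 genes of the spindle checkpoint were called lower, and 3 of them by at least 2-fold, with a median log2 fold change of -1.01. Bub1b, which encodes BUBR1, a subunit of the mitotic checkpoint complex (Entrez gene 12236, chromosome 2, 118598202 to 118641592), measured 179.6, 158 and 182 CPM with vehicle and 76.3, 74.6 and 107 CPM with panobinostat. Library 6 was the highest treated library and below all vehicle libraries, and the gene was 2.01-fold lower (log2 -1.01 ± 0.15, SE, n = 3 each; edgeR adjusted p = 0.0082). Bub1, a kinase that recruits other checkpoint proteins to kinetochores, measured 102, 84 and 104 CPM with vehicle and 39.4, 38.1 and 58 CPM with panobinostat. It separated in the same way and was 2.14-fold lower (log2 -1.10 ± 0.18, SE, n = 3 each; edgeR adjusted p = 0.01). Ttk, the MPS1 kinase that starts checkpoint signaling, was 2.08-fold lower (log2 -1.06 ± 0.20, SE, n = 3 each; edgeR adjusted p = 0.015), and Mad2l1, MAD2, which binds CDC20, was 1.81-fold lower (log2 -0.86 ± 0.15, SE, n = 3 each; edgeR adjusted p = 0.012). Bub3, the adaptor that carries BUB1 and BUBR1 to the kinetochore, measured 147, 148 and 161 CPM with vehicle and 121, 113 and 125 CPM with panobinostat. It had the smallest difference of all genes called lower and the smallest standard error, without overlap, and was 1.27-fold lower (log2 -0.34 ± 0.09, SE, n = 3 each; edgeR adjusted p = 0.032). The ratio of Bub3 to Bub1, a pair chosen after the values were seen, was 1.45 to 1.76 in vehicle libraries and 2.16 to 3.07 in panobinostat libraries.

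**Figure D3:**
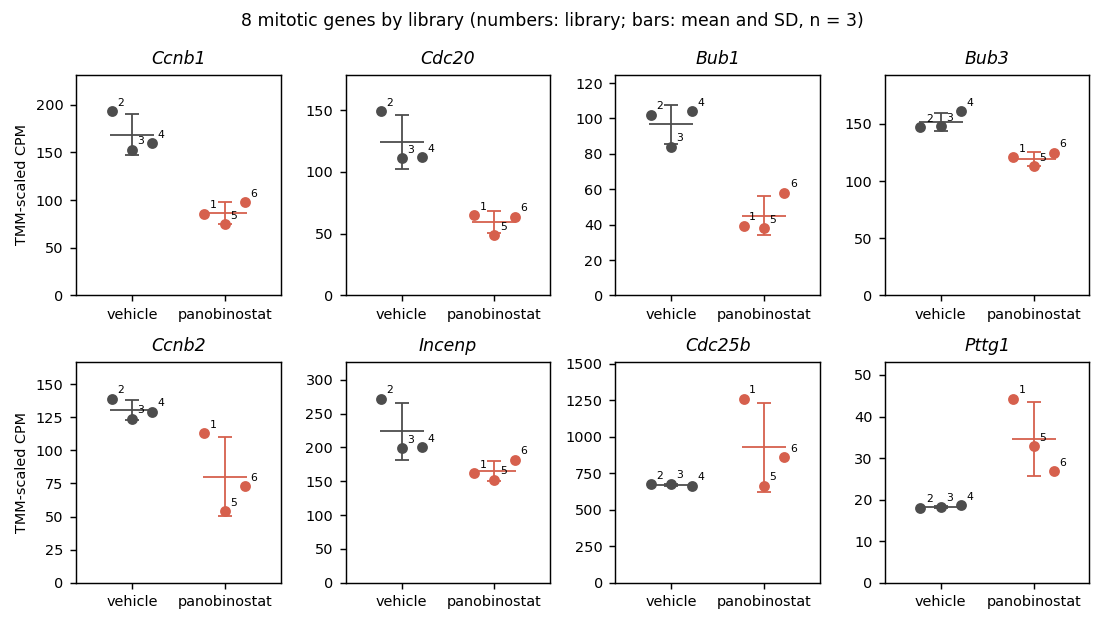
TMM-scaled CPM of 8 genes in each library (numbers beside the points), with the mean and SD of the 3 libraries of a group (bars). Ccnb1, Cdc20 and Bub1 separate widely, Bub3 narrowly, Ccnb2 and Cdc25b have 1 treated library near or far from the others, and Pttg1 is higher in all 3 treated libraries.

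In the inner kinetochore, which sits on centromeric chromatin, 4 of 6 genes were called lower and all 6 fold changes were negative. Cenpi, a subunit of the constitutive centromere network (Entrez gene 102920, chromosome X, 134308084 to 134363104), measured 42.1, 35.2 and 45.2 CPM with vehicle and 15.7, 17.5 and 24 CPM with panobinostat. Library 1 was its lowest, all treated libraries were below all vehicle libraries, and it was 2.14-fold lower (log2 -1.10 ± 0.18, SE, n = 3 each; edgeR adjusted p = 0.01). Cenpk, a partner of CENP-H and CENP-I, measured 20.1, 16.8 and 21.1 CPM with vehicle and 12.1, 10.4 and 13.6 CPM with panobinostat. The gap between the groups was narrower, and it was 1.61-fold lower (log2 -0.68 ± 0.15, SE, n = 3 each; edgeR adjusted p = 0.022). Cenph measured 38.6, 28.7 and 34.7 CPM with vehicle and 26.4, 18.6 and 26.8 CPM with panobinostat. Its groups came close without overlapping, and it was not called (log2 -0.50, edgeR adjusted p = 0.082). Cenpm overlapped between groups, with library 1 just above vehicle library 3, and was not called (log2 -0.56, edgeR adjusted p = 0.11). Cenpa, the centromeric histone, and Cenpn, which reads it, were both called lower (log2 -0.69, edgeR adjusted p = 0.022, and log2 -0.89, edgeR adjusted p = 0.023).

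All 9 genes of the outer kinetochore, the layer that grips microtubules, were called lower, with log2 fold changes from -1.12 to -0.58. Ska3, a subunit of the SKA complex that holds on to microtubule ends (Entrez gene 219114, chromosome 14, 57806558 to 57826291), measured 35.7, 29.4 and 31.5 CPM with vehicle and 13.1, 13.3 and 18.1 CPM with panobinostat. It was lowest in libraries 1 and 5, without overlap, and had the largest difference of the 54 genes: 2.17-fold lower (log2 -1.12 ± 0.16, SE, n = 3 each; edgeR adjusted p = 0.0068). Ska1, another subunit of the complex, measured 20.7, 17.4 and 19.3 CPM with vehicle and 9.1, 8.27 and 11.8 CPM with panobinostat. It separated fully as well, and was 1.97-fold lower (log2 -0.98 ± 0.17, SE, n = 3 each; edgeR adjusted p = 0.011). Spc25, a subunit of the NDC80 complex, the main microtubule coupler, measured 42.4, 31.8 and 37.5 CPM with vehicle and 24.5, 20.6 and 29.8 CPM with panobinostat. It had the smallest difference of this layer, with library 6 just below vehicle library 3, and was 1.49-fold lower (log2 -0.58 ± 0.17, SE, n = 3 each; edgeR adjusted p = 0.048). Its partners Ndc80, Spc24 and Nuf2 had log2 fold changes of -0.83, -0.83 and -0.63. Knstrn, a spindle and kinetochore protein, was at -0.66, Cenpe, the kinetochore motor CENP-E, at -0.86, and Cenpf, a large protein of the fibrous corona, at -0.76. Edge values of adjusted p among the 9 were 0.0068 for Ska3 and 0.048 for Spc25 (edgeR).

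The genes of anaphase and mitotic exit gave the one opposite call. Cdc20, the checkpoint target that switches on the APC/C (Entrez gene 107995, chromosome 4, 118432901 to 118437343), measured 149, 111 and 112 CPM with vehicle and 64.8, 48.9 and 63.6 CPM with panobinostat. The groups were far apart, and it was 2.1-fold lower (log2 -1.07 ± 0.16, SE, n = 3 each; edgeR adjusted p = 0.0079). Ube2c, a ubiquitin-conjugating enzyme that works with the APC/C (Entrez gene 68612, chromosome 2, 164769929 to 164772902), measured 146, 123 and 128 CPM with vehicle and 79.3, 62.1 and 80.4 CPM with panobinostat. It was 1.79-fold lower (log2 -0.84 ± 0.13, SE, n = 3 each; edgeR adjusted p = 0.0079), without overlap; 22.8% of its exonic bases are shared with Tnnc2 on the other strand, and the sources used here do not give the strand setting of the counting. Espl1, separase, which cuts cohesin, was 1.76-fold lower (log2 -0.82 ± 0.18, SE, n = 3 each; edgeR adjusted p = 0.022). Cdca5, sororin, which protects cohesion, and Cdca3, linked to the turnover of WEE1, were also called lower (log2 -0.72, edgeR adjusted p = 0.015, and log2 -0.72, edgeR adjusted p = 0.045).

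Pttg1 encodes securin, the inhibitor that keeps separase inactive until anaphase (Entrez gene 30939, chromosome 11, 43420244 to 43427463). It measured 18.1, 18.3 and 18.6 CPM with vehicle and 44.3, 32.9 and 26.8 CPM with panobinostat. The vehicle libraries were nearly equal and every treated library was above them, with library 1 the highest, the reverse of what the other 51 separating genes showed. The gene was 1.89-fold higher (log2 0.92 ± 0.18, SE, n = 3 each; edgeR adjusted p = 0.016). The call was lost when any one vehicle library was left out (largest edgeR adjusted p = 0.075), and the log2 fold change then and in the other settings stayed between 0.70 and 1.08. The ratio of Pttg1 to Espl1, a pair chosen after the values were seen, was 0.126 to 0.185 in vehicle libraries and 0.334 to 0.781 in panobinostat libraries. Its RefSeq promoter window held none of the letters searched, and was printed after the values were seen. The windows of Mad2l1, Ncaph, Knstrn, Nuf2, Birc5, Nusap1 and Plk4, all called lower, held none of them either. That of Cdc25b, which was not called, held both a CHR element and a CCAAT box. The start site of the Pttg1 window lies 1482 bases inside the outermost annotated start of the gene. The windows printed for Aurka and Ect2, both called lower, also lie inside the outermost annotated starts of their genes.
Pttg1, chr11:43425932-43426231, minus strand: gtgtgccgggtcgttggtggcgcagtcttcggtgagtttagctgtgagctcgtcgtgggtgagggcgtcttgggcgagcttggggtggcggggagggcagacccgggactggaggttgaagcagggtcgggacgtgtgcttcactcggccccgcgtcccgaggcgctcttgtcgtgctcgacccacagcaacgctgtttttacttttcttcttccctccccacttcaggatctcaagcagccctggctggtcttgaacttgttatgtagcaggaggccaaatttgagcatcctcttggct
The missing matches say only that the letters are not in this window.

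All 7 genes of the spindle midzone, spindle structure and cytokinesis were called lower. Ect2, the exchange factor that switches on RhoA at the cleavage furrow (Entrez gene 13605, chromosome 3, 27097222 to 27154253), measured 98.9, 81.9 and 85.8 CPM with vehicle and 35.8, 36.1 and 51.5 CPM with panobinostat. Libraries 1 and 5 were alike and lowest, and it was 2.16-fold lower (log2 -1.11 ± 0.16, SE, n = 3 each; edgeR adjusted p = 0.0073). Anln, anillin, which organizes the contractile ring, measured 134, 106 and 119 CPM with vehicle and 48.5, 48.7 and 73.6 CPM with panobinostat. Its pattern over the libraries was the same, and it was 2.1-fold lower (log2 -1.07 ± 0.18, SE, n = 3 each; edgeR adjusted p = 0.011). Ckap5, a microtubule polymerase, measured 213, 189.7 and 200.5 CPM with vehicle and 113, 147 and 166 CPM with panobinostat. It had the smallest difference of this group, with library 1 lowest, and was 1.42-fold lower (log2 -0.50 ± 0.14, SE, n = 3 each; edgeR adjusted p = 0.047). Hmmr, a spindle protein, had a log2 fold change of -0.99, Prc1, which bundles midzone microtubules, -0.77, and Nusap1 and Ckap2, both microtubule-binding spindle proteins, -0.75 each. Of the exonic bases of Prc1, 21.8% are shared with Rccd1 on the other strand.

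All 6 genes of chromosome structure were called lower, with a median log2 fold change of -0.77. Ncapg, a subunit of condensin I, the complex that compacts mitotic chromosomes (Entrez gene 54392, chromosome 5, 45669891 to 45700547), measured 129, 109.8 and 121 CPM with vehicle and 58.8, 54.6 and 79.9 CPM with panobinostat. It was 1.86-fold lower (log2 -0.90 ± 0.15, SE, n = 3 each; edgeR adjusted p = 0.011), without overlap, and shares 20.8% of its exonic bases with Lcorl on the other strand. Ncaph, the condensin I subunit that bridges its ATPases, measured 151, 112 and 125 CPM with vehicle and 71.8, 59.5 and 85.7 CPM with panobinostat. It was lowest in library 5 and 1.79-fold lower (log2 -0.84 ± 0.16, SE, n = 3 each; edgeR adjusted p = 0.015). Smc2, an ATPase of both condensins, measured 230.2, 186 and 214 CPM with vehicle and 118, 122 and 175 CPM with panobinostat. Library 6 lay just below vehicle library 3, and the gene was 1.52-fold lower (log2 -0.60 ± 0.17, SE, n = 3 each; edgeR adjusted p = 0.045). Smc4, the partner ATPase, and Ncapd2 had log2 fold changes of -0.60 and -0.70. Top2a, topoisomerase II alpha, which untangles sister DNA, had the highest CPM of the 48 genes called lower: it went from 837 ± 108 to 469 ± 114 CPM (SD, n = 3 each; log2 -0.84, edgeR adjusted p = 0.022).

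Compared per kilobase of annotated exon, the mean vehicle level ranged from 7.18 CPM per kb for Ska1 to 215 CPM per kb for Cdc25b. Top2a at 160 and Smc4 at 91.4 CPM per kb followed, and Ccnb2 at 85.6 CPM per kb was above Ccnb1 at 67.8 CPM per kb. At the low end, Cenpf was at 9.32 and Pttg1 at 10.4 CPM per kb. With panobinostat Pttg1 was at 19.6 CPM per kb, above the 9.84 of Espl1, whereas with vehicle Espl1 had been at 17.4.

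Library 1 differed from libraries 5 and 6 in a way that tended to follow gene length, with exceptions. Over the 54 genes, the ratio of library 1 to the mean of libraries 5 and 6 had a Pearson correlation of -0.61 and a Spearman correlation of -0.60 with exonic length, both on log scales. Over 11592 tested genes with a length, the correlations were -0.25 and -0.35. The ratio of libraries 5 and 6 to vehicle had correlations of 0.06 and 0.18 with length over the 54. These are correlations across genes of the same libraries, which are not independent replicates, and they are given with no test. The ratio was 1.77 for Ccnb2, 1.66 for Cdc25b and 1.48 for Pttg1, the 3 highest, and 0.695 for Cenpf, the longest. Among the exceptions, Cdc25b has 3136 exonic bases against 1531 in Ccnb2, and Mad2l1, with 8032, was at 0.991. Without library 1 the number called lower was 48 and the median log2 fold change -0.80. Without it the log2 fold change of Pttg1 was 0.70, still called (edgeR adjusted p = 0.0076), that of Cdc25b was 0.18, and Ccnb2 and Cenpm were called lower while Spc25 and Smc2 were not.

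**Figure D4:**
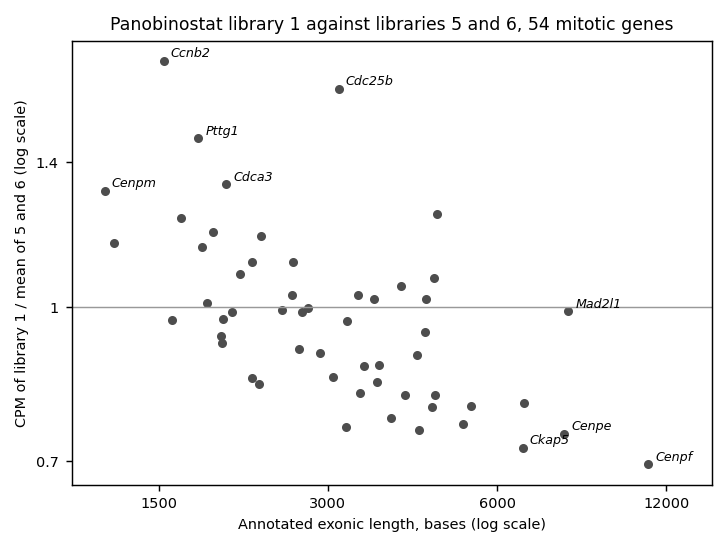
Each point is 1 of the 54 genes: annotated exonic length (x axis, log scale) against its CPM in panobinostat library 1 over the mean of libraries 5 and 6 (y axis, log scale). Short genes tend to lie above 1 and long genes below it, with Cenpf, the longest, at 0.695.

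The wider mitotic machinery was read from lists of related genes, all of which passed the filter. All 12 mitotic kinesins were called lower, with a median log2 fold change of -0.89. Kif2c, which depolymerizes microtubules at centromeres, went from 71.1 ± 10.1 to 34.7 ± 6.31 CPM, and Kif23, of the midzone centralspindlin complex, from 139.5 ± 24.5 to 63.9 ± 14.2 CPM (SD, n = 3 each). Their edgeR adjusted p values were 0.009 and 0.011. Of 10 further checkpoint and centromere protection genes 8 were called lower (median -0.84), led by Sgo1, shugoshin, which guards centromeric cohesion (log2 -1.08, edgeR adjusted p = 0.0065), and Spdl1, the dynein adaptor Spindly (log2 -0.92, edgeR adjusted p = 0.011). Of 23 further kinetochore genes 14 were called lower (median -0.59), led by Spag5, astrin (log2 -1.04, edgeR adjusted p = 0.0073). Of 24 further spindle and cytokinesis genes 13 were called lower (median -0.53). Fam83d, which brings casein kinase 1 to the spindle, was 2.69-fold lower (log2 -1.43, edgeR adjusted p = 0.0052), beyond any of the 54, and Racgap1, the partner of KIF23, 1.91-fold (log2 -0.93, edgeR adjusted p = 0.0081).

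These calls, too, became fewer when a vehicle library was left out. Without vehicle library 2 or vehicle library 4, 2 kinesins were called lower each time, and 1 of the further checkpoint genes. The further kinetochore genes then had 2 and 1 called lower, and the further spindle genes 3 and 3. Spdl1 missed the threshold both times. Spag5, Sgo1, Fam83d, Racgap1, Kif2c and Kif23 were called in all 10 other settings.

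Other parts of the machinery held fewer calls. The APC/C, with its regulators and enzymes, had 3 of 17 genes called lower, 17.6% against the 9.72% of all genes, and a median of -0.04. Those 3 were Ube2s, which extends ubiquitin chains (log2 -0.64, edgeR adjusted p = 0.012), Fbxo5, the inhibitor EMI1 (log2 -0.56, edgeR adjusted p = 0.038), and the core subunit Cdc23 (log2 -0.37, edgeR adjusted p = 0.038), which was named after its value was seen. Of 12 further genes of entry control 5 were called lower (median -0.42), led by Cks1b, a CDK-binding subunit (log2 -0.93, edgeR adjusted p = 0.0091), and Wee1, the kinase that inhibits CDK1 (log2 -0.49, edgeR adjusted p = 0.015). In the cohesin list 4 of 12 were called lower, among them Esco2, the S-phase acetyltransferase of cohesin (log2 -1.12, edgeR adjusted p = 0.014), and the core subunit Rad21 (log2 -0.48, edgeR adjusted p = 0.017). Mau2, a cohesin loader named after its value was seen, was called higher (log2 0.29, edgeR adjusted p = 0.037) and kept the call in 3 of 10 other settings. Of 3 condensin II subunits Ncapg2 was called lower (log2 -0.66, edgeR adjusted p = 0.036). The S-phase list had 9 of 25 called lower and a median of -0.47, led by Tyms, thymidylate synthase (log2 -0.72, edgeR adjusted p = 0.0092), and Pola1, DNA polymerase alpha (log2 -0.86, edgeR adjusted p = 0.017). Its count was 17 in DESeq2 and with library size alone, where 13.1% and 16% of all tested genes were called lower. It was 4 without vehicle library 3 and 2 without panobinostat library 5. With vehicle library 2 left out it dropped to 1, and with vehicle library 4 left out to 0.

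Leaving out vehicle library 2 or vehicle library 4 ended most calls in these 5 lists. In the APC/C, cohesin and condensin II lists 0 genes were called lower without vehicle library 2 and 0 without vehicle library 4, and in entry control 1 and 0. Without vehicle library 3 or panobinostat library 5, entry control had 2 each time, the APC/C 1 each time, and cohesin 1 and 2. Of all genes tested in those fits, 3.89% and 4.9% were called lower. Among the named genes, Ube2s, Fbxo5, Cdc23, Wee1, Esco2, Rad21, Ncapg2 and Pola1 missed the threshold without vehicle library 2 and without vehicle library 4, and Cks1b and Tyms without vehicle library 4. Fbxo5, Cdc23, Wee1 and Rad21 also missed it without vehicle library 3, and Fbxo5, Cdc23 and Ncapg2 without panobinostat library 5.

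**Figure D5:**
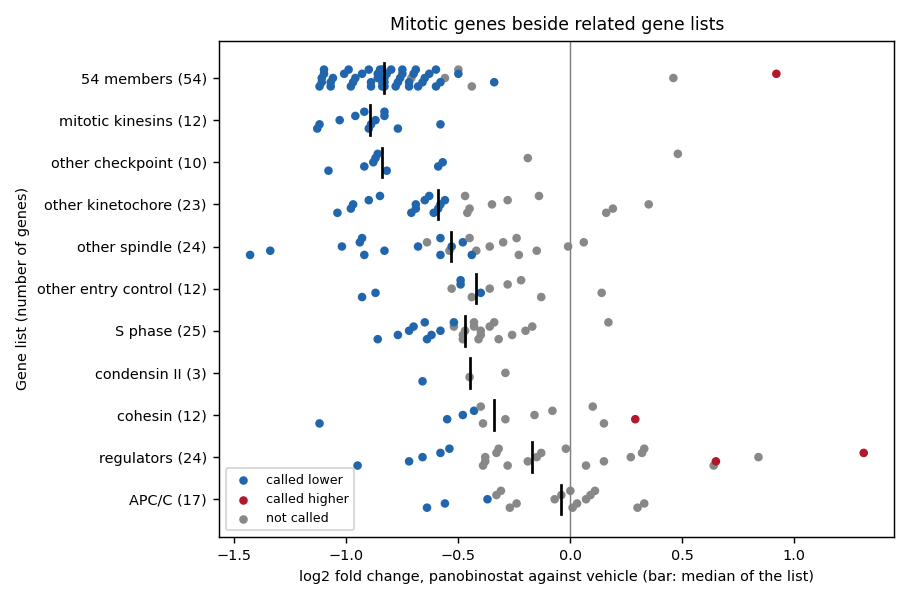
log2 fold change, panobinostat against vehicle (x axis), of every gene of the 54 and of the 10 related lists (rows; number of genes in brackets), with the median of each list as a bar and edgeR calls in color. The 54 genes, the kinesins and the further checkpoint genes have medians from -0.89 to -0.83, and the APC/C has -0.04.

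Among 24 regulators of this gene class, 5 were called lower (20.8%, against 9.72% of all genes) and 2 higher (against 11.3% of all genes), with a median log2 fold change of -0.17. Without vehicle library 2, and without vehicle library 4, 0 were called lower. Lin9, a subunit of the MuvB core, was 1.93-fold lower (log2 -0.95 ± 0.16, SE, n = 3 each; edgeR adjusted p = 0.011). Mybl2, B-MYB, which joins that core in cycling cells, went from 99.3 ± 19.8 to 60.4 ± 13 CPM (SD, n = 3 each; log2 -0.72, edgeR adjusted p = 0.04). Tfdp1, the DP1 partner of E2F factors, and Rbl1, the pocket protein p107, were also called lower (log2 -0.58, edgeR adjusted p = 0.018, and log2 -0.54, edgeR adjusted p = 0.024), and E2f1 was not called (log2 -0.32, edgeR adjusted p = 0.15). The pocket protein gene Rb1, named after its value was seen, was called higher (log2 0.65, edgeR adjusted p = 0.024). Cdkn1a, the CDK inhibitor p21, measured 118, 241 and 168 CPM with vehicle and 290.2, 598 and 417 CPM with panobinostat. Every treated library was above every vehicle library, and it was 2.47-fold higher (log2 1.31 ± 0.32, SE, n = 3 each; edgeR adjusted p = 0.031). Within each group its order over the libraries ran against that of the 54 genes in part: vehicle library 2 was lowest for Cdkn1a and the highest in 46 genes, and panobinostat library 5 was highest for Cdkn1a and the lowest in 39. The rest of the treated order did not mirror: panobinostat library 1 was lowest for Cdkn1a, but library 6 was the highest in 44 genes. With 3 libraries in a group this is a description. The calls of Cdkn1a, Mybl2, Lin9, Tfdp1 and Rbl1 were lost without vehicle library 2 and without vehicle library 4. Those of Mybl2, Rbl1 and Tfdp1 were also lost without vehicle library 3, those of Mybl2, Rbl1 and Cdkn1a without panobinostat library 5, and that of Cdkn1a without panobinostat library 6. The call of Rb1 was lost without vehicle library 3, vehicle library 4 or panobinostat library 5 (largest edgeR adjusted p of these 6 genes from 0.058 to 0.13). Mki67, the proliferation marker Ki-67, measured 1712, 1330.4 and 1509.9 CPM with vehicle and 1165, 949.7 and 1318 CPM with panobinostat. Its groups did not overlap, but the difference was smaller than the median of the 54 and was not called (log2 -0.41, edgeR adjusted p = 0.097).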

How the data were processed

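RNA of sorted leukemia cells was sequenced in 3 vehicle and 3 panobinostat libraries, made with a TruSeq kit from 1 ug of total RNA per the labels' protocols. The authors deposited raw whole-number counts of reads for each gene, made with HISAT2 2.1.0 and featureCounts of Subread 2.0.0 on mm10, per the submitters' processing notes. The sources used here do not give the gene annotation, the strand setting or the treatment of multiply placed reads. Columns were tied to groups by the words treated and control in their names, which carry no replicate number. RefSeq gave symbols for 25275 Entrez gene IDs, GENCODE for another 18, and 1886 were not named.

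Genes were filtered with filterByExpr, scaled by TMM and tested with edgeR 4.0.16 (R 4.3.3; quasi-likelihood F test, 2-sided, treatment as the only term, Benjamini-Hochberg over 12916 genes, called at adjusted p under 0.05). The test was also run on simulated counts with 200 genes changed by 2-fold to 4-fold and 1 dispersion for all genes. It recovered 83.6% of the 2-fold changes, and 5.5% of its calls were false. Changes below 2-fold and genes that shift together by library were not simulated. Standard errors are the absolute log2 fold change over the square root of F. An exact permutation test of 3 against 3 cannot go below p = 0.1. Exonic length is the union of exons in GENCODE. Alternatives were library size alone, DESeq2 1.42.0, limma-voom (limma 3.58.1), no filter, and leaving out each library.

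The genes and related lists were chosen with earlier results of these data known. In each role group, the 2 genes with the smallest p and the one with the highest log2 fold change have the value of every library, Ccnb2 being added after its values were seen. Up to 2 called genes with the smallest p stand for each related list (1 is not reported here), and Mki67, Cdkn1a, Mybl2, E2f1, Rbl1 and Lin9 are always named. Proteins were not analysed here.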

Additional observations from a re-analysis of the deposited data

How the results depend on the processing

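Library size alone, DESeq2, limma-voom and no filter on low counts each left the number of the 54 genes called lower at 48 to 51, the number called higher at 1, and the median log2 fold change between -0.93 and -0.83. In that order, 16%, 13.1%, 9.82% and 6.34% of all tested genes were called lower in these settings, against 9.72% in the main fit. Library size alone moved the all-gene median (log2) from 0.01 to -0.10, and the share of higher calls among all calls from 53.8% to 35.5%; the direction of all 54 genes held. Leaving out each library in turn gave 9 to 48 genes called lower, 0 to 2 called higher, and 438 to 4056 calls over all genes against 2715. The lowest numbers called lower, 9 each, came without vehicle library 2 and without vehicle library 4. Pttg1 was not called without vehicle library 2, 3 or 4, and without panobinostat library 5 Cdc25b was the other gene called higher (edgeR adjusted p = 0.046). Leaving out a library leaves fewer samples, and beyond that the cause was not tested. With vehicle library 2 left out 40 of the 54 genes lost their call, with vehicle library 4 also 40, with panobinostat library 5 13 and with vehicle library 3 7. No paired analysis was possible because the count columns carry no replicate number. Each of the 54 genes had at least 205 counts in every library.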
